A study of Mus musculus with 10 samples.

Results

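The 36 genes described here encode aminoacyl-tRNA synthetases. They were chosen by symbol, and each of the 36 was present once in every one of the 10 gene tables, out of 24421 gene symbols in all. By their names, 20 encode the cytosolic enzymes and 16, with names ending in 2, the mitochondrial enzymes. Gars and Kars encode both forms from 1 gene and were kept with the cytosolic group. All 36 passed the filter on low values, at least 1 TPM (transcript abundance per 1e+06 transcripts) in 3 or more libraries, so no member was lost from the tests.

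Each aminoacyl-tRNA synthetase joins 1 amino acid to its matching tRNA, which is the step that ties the genetic code to the protein chain. Cytosolic enzymes serve the ribosomes that read nuclear messages, and a separate nuclear-encoded set serves the ribosomes inside mitochondria. Several cytosolic enzymes are held together with scaffold proteins in the multisynthetase complex, many cytosolic synthetase genes are known targets of the amino acid response through ATF4, and Wars, the tryptophan enzyme, is known as a gene that interferon-gamma (IFN-γ) induces in macrophages and other cells.

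RNA was sequenced from Ly6C-high monocytes, the inflammatory type of blood and tissue monocyte, sorted from spleens of C57BL/6 mice 5 days after surgery. WT mice had a sham operation, in which the chest was opened and no vessel tied (3 libraries, numbered 1, 2 and 3), or myocardial infarction (MI), for which the left anterior descending artery of the heart was tied off for good (3 libraries, numbered 2, 3 and 4). Foxp3DTR mice had MI; in them the Foxp3 promoter drives a human receptor for diphtheria toxin, and the toxin removes Foxp3+ regulatory T cells (Tregs) (4 libraries, numbered 1 to 4). The toxin protocol was 500 ng before surgery on 2 days and 250 ng on day 2 after it, and all operated mice received buprenorphine. The labels do not say which of these libraries came from toxin-treated mice. The study's text describes toxin given to both WT and Foxp3DTR mice with MI, which it compared. Its methods also name the day 2 dose after sham operation in the depletion experiments. They do not say whether the sham mice of these libraries had it. No Foxp3DTR mice with sham surgery were among the libraries, and depletion in this model is partial. Genotype and depletion cannot be told apart. For the comparisons with sham, toxin may or may not differ as well, and its part cannot be told apart either. The study counts animals as n for these data, but no label ties a library to a mouse, and p-values measure the spread between these libraries, and in bulk RNA fewer cells of a type and less RNA per cell cannot be told apart.

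Behind the gene values stood 3.13 to 8.40 M reads (M, 1e+06) per library, inferred from the coverage, with the fewest in sham library 2. These are the reads that entered the deposited gene values, fewer than the study's methods give as sequenced. The monocyte markers summed to between 4389 and 9625 scaled TPM per library, with Ly6c2 at 1524 to 5028 and Ccr2 at 922 to 1614. Markers listed for other cells were present in every library, but whether the monocytes themselves carry some of these transcripts was not tested. The 13 neutrophil markers summed to 398 to 2939 scaled TPM, the 8 plasma cell markers to 354 to 688, the 8 NK cell markers to 32.2 to 203, the 10 T cell markers to 17.2 to 170 and the 6 B cell markers to 8.96 to 27.4. Within the plasma cell list, Jchain ran from 3.91 to 201 and Sdc1 from 0.270 to 2.10 scaled TPM. Of all markers listed, globin genes included, only Hbb-bt was listed at 0 in every library. Scaled TPM is the deposited TPM divided by a factor per library (0.856 to 1.14) that puts the typical gene at the same level in all libraries.

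Of the cytosolic genes, 5 carry, close to the start of transcription, the letters of the C/EBP-ATF element, which ATF4 is known to bind in amino acid response genes. RefSeq promoters (GRCm38.p6, from 250 bases before to 50 bases after the start) were at hand for 26 of the 36 members, namely 12 cytosolic and 14 mitochondrial genes. Promoters of Cars, Hars, Hars2, Lars, Mars, Nars, Pars2, Rars, Vars and Wars were not searched. TGATGNAA, sought on both strands, was in 5 of the 12 cytosolic promoters, in 0 of the 14 mitochondrial ones and in 4.51% of the promoters of 27025 genes. The other 7 cytosolic promoters (Dars, Eprs, Farsa, Farsb, Kars, Qars and Sars) lacked it. The ISRE, an element of interferon-responsive genes sought on both strands, was in 1 of the 12 cytosolic promoters (Qars), in 0 of the 14 mitochondrial ones and in 3.99% of all genes' promoters. For each of the 5 genes 1 match to TGATGNAA is shown, because that element belongs to the amino acid response described further on. Each line is 30 bases of the gene's own strand, with the match in capitals (the element itself or its reverse complement). A match is only a run of letters and says nothing of binding in these cells.
Aars, after the start, chr8:111033840-111033869, plus strand: agcgggtcactTTTCATCAgagcgctctga
Gars, 30 bases before the start, chr6:55037960-55037989, plus strand: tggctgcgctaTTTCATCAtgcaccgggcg
Iars, after the start, chr13:49682126-49682155, plus strand: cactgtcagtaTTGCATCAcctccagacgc
Tars, 15 bases before the start, chr15:11399655-11399684, minus strand: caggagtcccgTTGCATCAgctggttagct
Yars, after the start, chr4:129189895-129189924, plus strand: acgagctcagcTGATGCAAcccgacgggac

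All 36 synthetases were measured in every library, at very different levels. Among the cytosolic enzymes Yars and Cars were lowest, at 10.4 to 16.8 and 10.8 to 19.6 scaled TPM over the 10 libraries. Qars and Nars were among the highest, at 61.0 to 76.5 and 60.6 to 89.5 scaled TPM. Most mitochondrial enzymes lay below the cytosolic ones, from Ears2 at 0.90 to 1.96 scaled TPM to Iars2 at 29.1 to 48.2. Lars2 stood far above all other members at 2644 to 5118 scaled TPM. Sars, the serine enzyme, varied least, with the highest library 1.14 times the lowest, and Wars varied most, with the highest library 4.01 times the lowest. Sham library 2 held the lowest sham value of all 20 cytosolic members and of 6 of the 16 mitochondrial members, and it also had the fewest reads. Its part in these values was not tested.

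**Figure D1:**
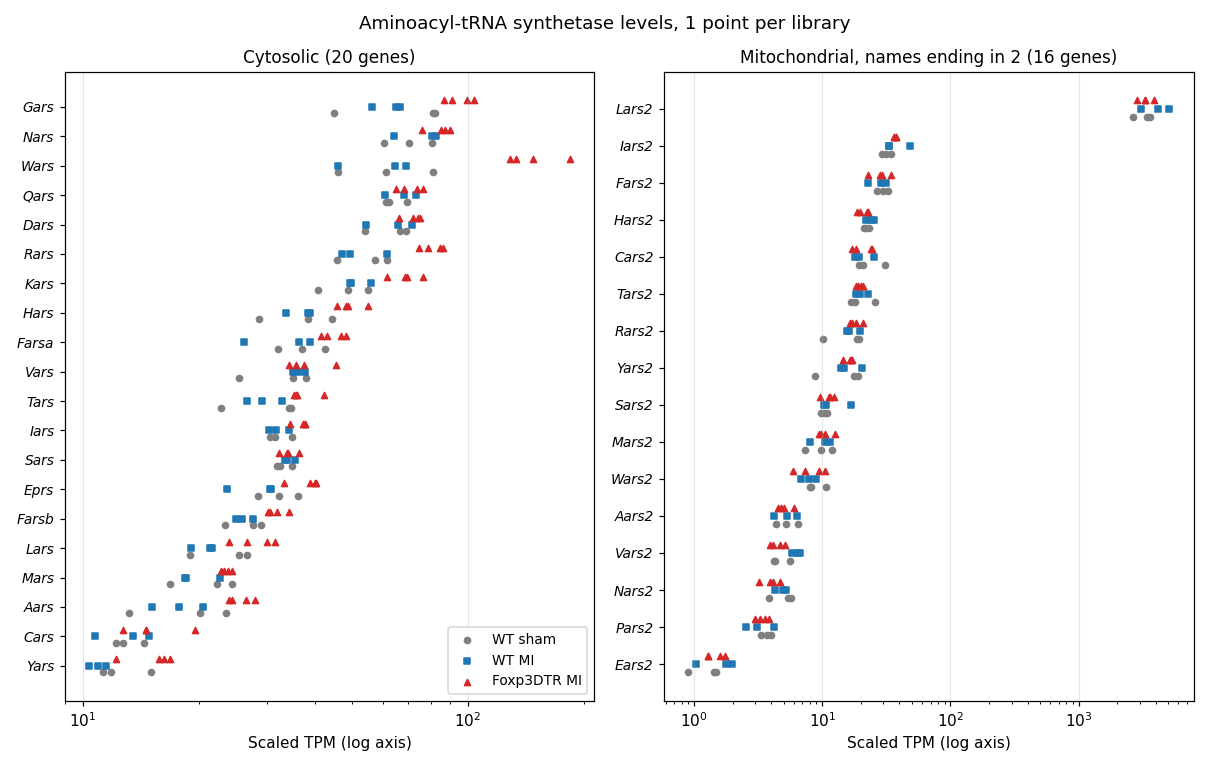
Scaled TPM (log axis) of the 20 cytosolic (left) and 16 mitochondrial (right) synthetase genes, with 1 point per library (circles WT sham, squares WT MI, triangles Foxp3DTR MI). Wars separates the 4 Foxp3DTR libraries from the other 6, and Lars2 lies between 2644 and 5118 while no other value exceeds 184.

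The comparison of Foxp3DTR with WT mice after MI asks how Ly6C-high monocytes differ when Tregs are depleted. Wars rose 2.48-fold, and it was the 1 synthetase of 36 past the threshold (adjusted p under 0.05), against 0.688% of the 12938 genes tested that were called higher. Of the 20 cytosolic genes, 19 were higher on average in Foxp3DTR mice (a log2 fold change above 0), and the median was 0.37, while the median of all genes was 0.0008 and 50.1% of them were positive. Of the 16 mitochondrial genes, 6 were positive and the median was -0.031. None was called lower, against 0.433% of all genes.

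Wars stood at 46.0, 69.0 and 64.5 scaled TPM in the 3 WT MI libraries and at 128, 133, 184 and 147 in the 4 Foxp3DTR libraries. In the sham libraries it stood at 61.2, 45.9 and 80.9. Every Foxp3DTR library was above every WT library, and WT libraries of both operations overlapped. The means were 59.8 ± 12.2 (SD, n = 3) in WT MI and 148 ± 25.3 (SD, n = 4) in Foxp3DTR MI, and the log2 fold change was 1.30 with an SE of 0.21 (limma, adjusted p = 0.025). The gene lies at chr12:108860030-108894174 (mm10, minus strand). No 50-base window of its transcripts occurs in another annotated gene's transcripts, and the mean depth over its exons ranged from 2.45 to 22.9.

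The Wars call rested on each library of the comparison. Leaving out any 1 of the 3 WT MI or 4 Foxp3DTR libraries gave log2 fold changes of 1.12 to 1.41 with adjusted p values (limma) from 0.056 without Foxp3DTR library 1 to 0.085 without Foxp3DTR library 3. Without a filter on low values the adjusted p was 0.064.

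Wars2, the mitochondrial tryptophan enzyme, stood at 7.84, 8.99 and 6.80 scaled TPM in WT MI and at 10.5, 7.29, 9.37 and 5.86 in Foxp3DTR MI. These groups overlapped, and the log2 fold change of Wars2 was 0.040. The ratio of Wars to Wars2 ran from 4.33 to 25.1 over the 10 libraries.

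**Figure D2:**
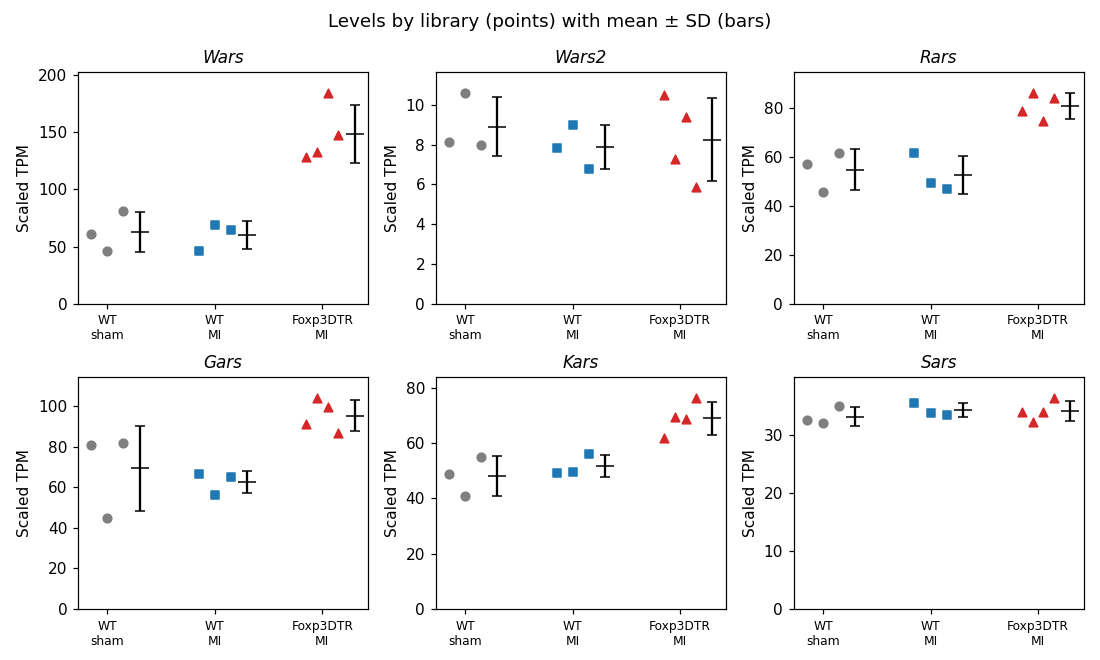
Scaled TPM of 6 synthetase genes by library (points), with the mean ± SD of each group beside them (n = 3, 3 and 4), on axes that start at 0. Wars, Rars, Gars and Kars lie higher in all 4 Foxp3DTR libraries than in all 3 WT MI libraries, while Wars2 and Sars overlap.

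Of the other 19 cytosolic enzymes, 18 lay in the same direction with smaller differences, and none of the 19 was past the threshold. Rars, the arginine enzyme, came closest. It stood at 61.6, 49.3 and 47.1 scaled TPM in WT MI and at 78.8, 86.3, 74.8 and 84.3 in Foxp3DTR MI, so the groups did not overlap. Its log2 fold change was 0.62 with an SE of 0.13 (limma, adjusted p = 0.052). Kars, the lysine enzyme, stood at 49.3, 49.7 and 56.1 in WT MI and at 61.7, 69.4, 68.7 and 76.2 in Foxp3DTR MI, again without overlap, with a log2 fold change of 0.41 and an SE of 0.12 (limma, adjusted p = 0.122). Eprs, which charges both glutamate and proline tRNAs, stood at 30.8, 23.7 and 30.6 against 38.8, 40.1, 40.4 and 33.3 scaled TPM. The Foxp3DTR libraries of Eprs were above all WT MI libraries, with a log2 fold change of 0.42 and an SE of 0.13 (limma, adjusted p = 0.146).

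Gars, the glycine enzyme, stood at 66.7, 56.3 and 65.0 scaled TPM in WT MI and at 91.1, 104, 99.4 and 86.8 in Foxp3DTR MI, without overlap. Across the cytosolic group, 14 of 20 genes were higher in all 4 Foxp3DTR libraries than in all 3 WT MI libraries, against 9.97% of all genes. At an unadjusted p under 0.05, 11 of 20 were higher, against 9.31% of all genes. The 6 genes whose groups overlapped were Cars, Dars, Nars, Qars, Sars and Vars. Sars was the 1 cytosolic gene without a positive value, at 35.6, 33.8 and 33.4 scaled TPM in WT MI and 33.9, 32.3, 34.0 and 36.4 in Foxp3DTR MI. In the deposited TPM, before scaling, 19 of 20 cytosolic genes did not overlap, but so did 21.7% of all genes, because the typical gene was 0.22 higher on the log2 scale in the Foxp3DTR libraries.

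**Figure D3:**
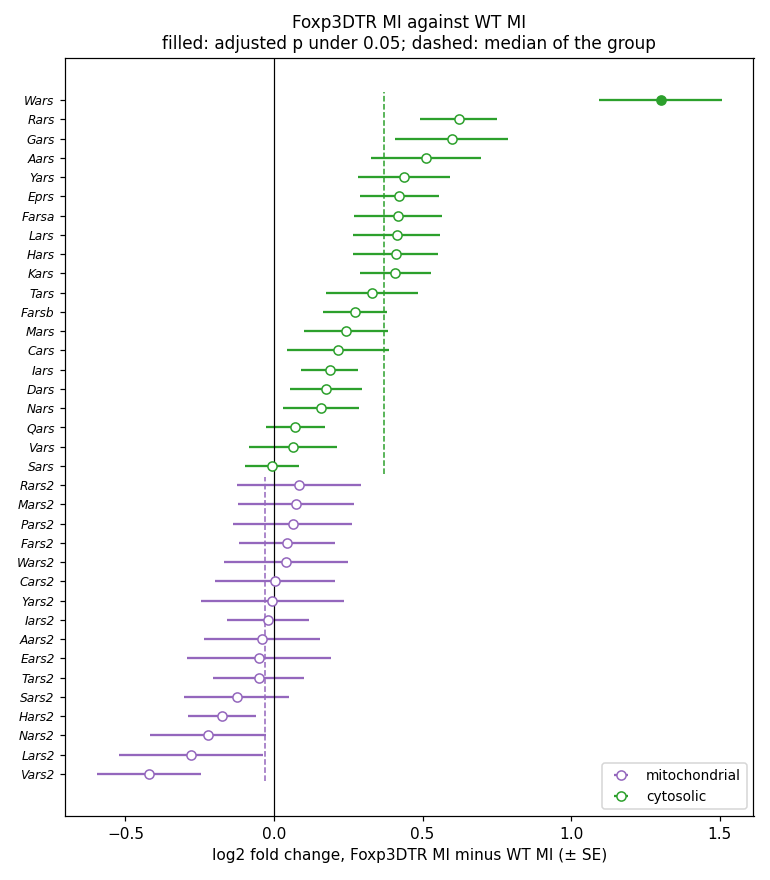
Log2 fold change (± SE, x axis) of the 36 synthetase genes in Foxp3DTR MI (n = 4) against WT MI (n = 3), cytosolic genes above and mitochondrial genes below, with dashed lines at the group medians of 0.37 and -0.031. The filled point, Wars, is the gene past the threshold, and Sars is the cytosolic gene that is not above 0.

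The direction was shared by groups of cytosolic enzymes that differ in structure and partners. The 8 enzymes of the multisynthetase complex (Dars, Eprs, Iars, Kars, Lars, Mars, Qars and Rars) were all positive, with a median of 0.33. Of them, 6 were higher without overlap, against 9.97% of all genes. The summed level of all 8 was 308 to 362 scaled TPM in the WT MI libraries and 408 to 430 in the Foxp3DTR libraries. Of the class I enzymes, which share a Rossmann-type catalytic fold, 9 of 9 were positive with a median of 0.24. Of the class II enzymes, built on an antiparallel sheet, 9 of 10 were positive with a median of 0.37. The genes with a C/EBP-ATF match in the promoter had log2 fold changes of 0.19 (Iars), 0.33 (Tars), 0.44 (Yars), 0.51 (Aars) and 0.60 (Gars), and the 7 cytosolic genes with a searched promoter and no match ranged from -0.0058 to 0.42.

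The mitochondrial enzymes lay on both sides of 0, from -0.42 to 0.084. Vars2, the mitochondrial valine enzyme, was the 1 member lower in all Foxp3DTR libraries than in all WT MI libraries, against 9.02% of all genes. It stood at 6.67, 5.75 and 6.48 scaled TPM in WT MI and at 5.15, 3.88, 4.14 and 4.70 in Foxp3DTR MI, with a log2 fold change of -0.42 and an SE of 0.18 (limma, adjusted p = 0.248). Vars2 was also the 1 member with an unadjusted p under 0.05 on the lower side, against 8.42% of all genes. Of the transcript windows of Vars2, 6.45% also occur in an overlapping antisense gene, Gm20483. The next by p on the lower side were Hars2 at -0.18 with an SE of 0.11 (limma, adjusted p = 0.451), Lars2 at -0.28 with an SE of 0.24 (limma, adjusted p = 0.582) and Nars2 at -0.22 with an SE of 0.19 (limma, adjusted p = 0.588). None of these 3 was past the threshold, and the groups overlapped for each. The mitochondrial median was 0.20 in the deposited TPM, where the median of all genes was 0.22, and the cytosolic median was positive in all 25 settings tried, from 0.078 to 0.61.

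Sums over the enzymes put the same data by library. The cytosolic genes without Wars summed to 752, 661 and 729 scaled TPM in WT MI, to 773, 603 and 790 in sham and to 860, 922, 872 and 911 in Foxp3DTR MI. All 4 Foxp3DTR libraries were above all 6 WT libraries, and WT MI and sham overlapped. The mitochondrial genes without Lars2 summed to 199, 214 and 234 in WT MI, to 194, 217 and 211 in sham and to 219, 213, 206 and 200 in Foxp3DTR MI, where all 3 groups overlapped. The mean log2 level of the cytosolic genes exceeded that of the mitochondrial genes (without Lars2) by 1.55 ± 0.11 (SD, n = 3) in WT MI, 1.63 ± 0.21 (SD, n = 3) in sham and 1.96 ± 0.077 (SD, n = 4) in Foxp3DTR MI. By library it was 1.48 to 1.68 in WT MI, 1.39 to 1.79 in sham and 1.88 to 2.05 in Foxp3DTR MI, and the Foxp3DTR libraries did not overlap the others.

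Each mitochondrial enzyme was then set beside the cytosolic enzyme of the same amino acid, which gave 16 pairs (Eprs in 2 of them). The cytosolic gene was higher in all 10 libraries in 10 pairs, the mitochondrial gene in 2 pairs (Cars2 and Lars2), and the order varied between libraries in 4 pairs. Nars exceeded Nars2 by 12.4 to 27.9 times, and Iars and Iars2 were close, with a ratio of 0.660 to 1.11. In Foxp3DTR against WT MI the log2 fold change was larger on the cytosolic side in 16 of 16 pairs, by as little as in Sars and Sars2 (-0.0058 against -0.13) and by as much as in Wars and Wars2 (1.30 against 0.040). In WT MI against sham the cytosolic side was larger in 3 of 16 pairs, and in Foxp3DTR MI against sham in 14 of 16. The comparisons share libraries, so these counts are not independent of each other.

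**Figure D4:**
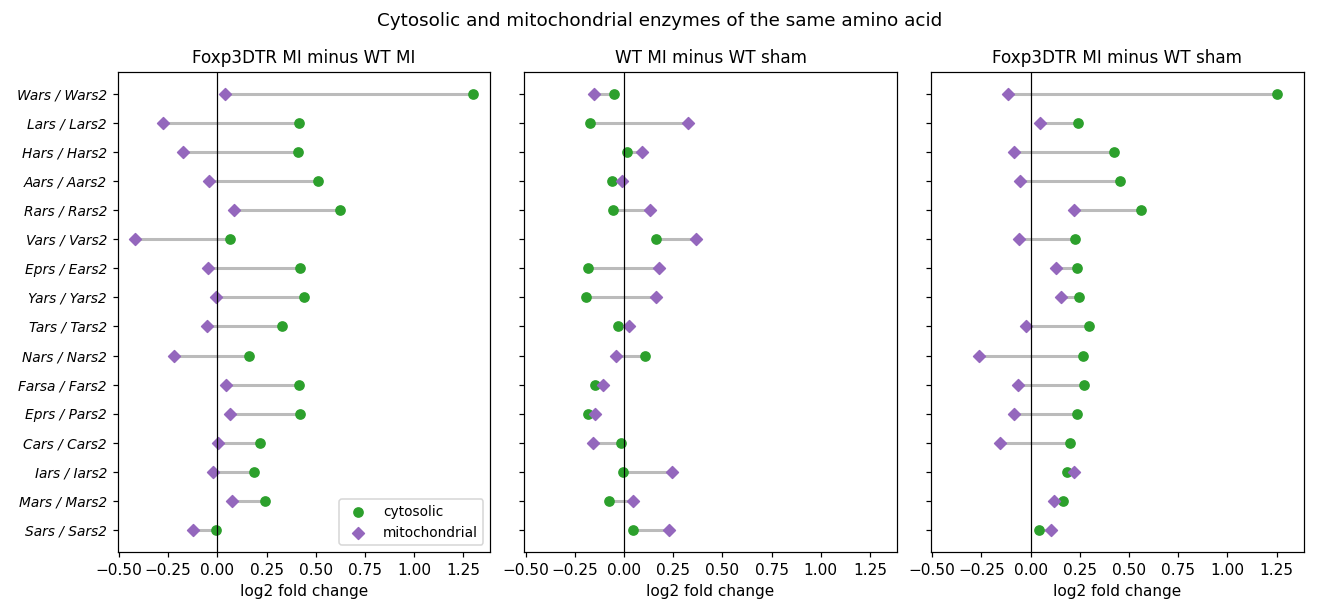
Log2 fold changes of the cytosolic (circles) and mitochondrial (diamonds) enzyme of each of 16 pairs in the 3 comparisons, with Eprs drawn in 2 rows. In Foxp3DTR MI against WT MI the circle is right of the diamond in all 16 rows, in WT MI against sham in 3.

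Of the genes that work beside the synthetases in translation, none passed the threshold. Of 13 partner genes, which include the scaffold genes Aimp1 and Aimp2 and enzymes that correct or finish charged tRNAs, 7 were positive in Foxp3DTR against WT MI, with a median of 0.11, and 0 passed the threshold. The lowest p was that of Pstk, the kinase that acts on seryl-tRNA on the way to selenocysteine, at 13.9, 11.8 and 16.3 scaled TPM in WT MI and 9.50, 8.31, 7.80 and 8.40 in Foxp3DTR MI. Its groups did not overlap, and its log2 fold change was -0.65 with an SE of 0.17 (limma, adjusted p = 0.085). At an unadjusted p under 0.05, 0 partner genes were higher and 1 was lower, against 9.31% and 8.42% of all genes.

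Of 8 cytosolic elongation and release genes, 4 were positive, with a median of 0.008 and 0 past the threshold. At an unadjusted p under 0.05, 3 were higher and 1 lower, against 9.31% and 8.42% of all genes. Eif5a, an elongation factor, had the lowest p, with 216, 153 and 218 scaled TPM in WT MI and 264, 267, 263 and 286 in Foxp3DTR MI, and a log2 fold change of 0.48 with an SE of 0.15 (limma, adjusted p = 0.146). Of 9 mitochondrial translation factors, 5 were positive with a median of 0.13 and 0 were called. At an unadjusted p under 0.05, 2 were higher, against 9.31% of all genes. Mrrf, which recycles mitochondrial ribosomes, had the lowest p at a log2 fold change of 0.48 with an SE of 0.19 (limma, adjusted p = 0.233).

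The amino acid response list held 25 genes, of which 20 were tested. In Foxp3DTR against WT MI, 10 were positive, the median was 0.11 and 0 were called. At an unadjusted p under 0.05, 3 were higher and 2 lower, against 9.31% and 8.42% of all genes. Atf4, the factor that binds the C/EBP-ATF element, stood at 141, 149 and 179 scaled TPM in WT MI and at 166, 201, 179 and 180 in Foxp3DTR MI, and the groups overlapped. Of the 20 tested, 4 were higher in all 4 Foxp3DTR than in all 3 WT MI libraries, against 9.97% of all genes. On the lower side were 2, against 9.02% of all genes. Named after their values were seen, the 3 genes with an unadjusted p under 0.05 on the higher side were Psat1 and Asns, which make serine and asparagine, and Aldh18a1, which works in proline synthesis, at log2 fold changes of 0.91, 0.91 and 0.54 (limma, adjusted p of 0.174, 0.235 and 0.224). Psat1 stood at 23.8, 14.2 and 21.2 scaled TPM in WT MI and 40.0, 50.5, 27.2 and 34.9 in Foxp3DTR MI, without overlap. Asns was at 0.515 to 2.63 against 3.14 to 4.23, and Aldh18a1 at 6.19 to 8.97 against 9.59 to 11.9. In sham, Asns stood at 2.24, 1.67 and 5.81 and Aldh18a1 at 6.65, 6.09 and 11.2, both overlapping Foxp3DTR MI. The 2 genes lower without overlap were Pycr1 and Nupr1, at log2 fold changes of -0.60 and -0.37 (limma, adjusted p of 0.240 and 0.305). Pycr1 stood at 2.03, 1.08 and 2.42 scaled TPM in WT MI and at 0.698, 0.918, 0.835 and 0.877 in Foxp3DTR MI. In sham, Pycr1 stood at 1.06, 0.843 and 1.03, which overlapped Foxp3DTR MI and lay below WT MI. The lowest p of the list was that of Cebpb, a factor of myeloid cells, at 845, 917 and 1251 scaled TPM in WT MI and 460, 254, 247 and 985 in Foxp3DTR MI. Foxp3DTR library 4 lay within the range of WT MI, and the log2 fold change of Cebpb was -1.27 with an SE of 0.43 (limma, adjusted p = 0.168).

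Transcripts of IFN-γ response genes and markers of other cell types also differed between these groups, most of them upwards. Of 21 IFN-γ response genes, 20 were tested, 19 were positive with a median of 1.48, and 10 were called higher, against 0.688% of all genes. Their sum was 1408 to 2235 scaled TPM in WT MI, 1468 to 2784 in sham and 3875 to 5150 in Foxp3DTR MI. The Foxp3DTR libraries did not overlap the WT libraries. The part of IFN-γ in the Wars level was not tested. All 16 proliferation genes were positive, with a median of 1.11 and 0 called (9 higher at an unadjusted p under 0.05). Their sums overlapped at 271 to 828 in WT MI and 516 to 1099 in Foxp3DTR MI. Of all genes, 9.31% were higher at an unadjusted p under 0.05. The 10 T cell markers in the tables were all positive, 0 called (8 higher at an unadjusted p under 0.05), and their sums did not overlap at 17.2 to 21.2 in WT MI and 39.2 to 128 in Foxp3DTR MI. For the 13 neutrophil markers, 12 were positive and 3 called higher, and the sums were 398 to 689 in WT MI and 1291 to 2939 in Foxp3DTR MI. The 8 NK cell markers were all positive and 2 were called, with sums of 32.2 to 66.1 against 92.3 to 203. The sums of B cell markers were lower in Foxp3DTR MI, at 15.7 to 20.2 in WT MI and 8.96 to 15.01 in Foxp3DTR MI, without overlap. Of the 4 tested B cell markers 2 were positive, and Cd79b, part of the B cell receptor, was called lower (log2 fold change -0.78, limma, adjusted p = 0.0496), against 0.433% of all genes called lower. Of 6 tested plasma cell markers 5 were positive and 0 called (3 higher at an unadjusted p under 0.05), with overlapping sums of 410 to 484 and 477 to 560. Of 6 tested erythroid markers 5 were positive and 0 were called, also at an unadjusted p under 0.05, with overlapping sums of 6.28 to 9.75 and 7.58 to 26.9.

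The T cell, neutrophil and proliferation levels were put into the fit as covariates, a choice made after seeing the data. The levels of the other lists were not. The cytosolic median was 0.20 with the T cell level, 0.078 with the neutrophil level and 0.25 with the proliferation level, and the log2 fold change of Wars was 0.98, 1.03 and 1.44 with adjusted p values (limma) of 0.805, 0.999 and 0.196. With each of the 3 covariates 0 genes of all those tested were called, with 502 to 1231 at an unadjusted p under 0.05. T cell and neutrophil sums do not overlap between the groups, so their part and that of the group cannot be told apart in these fits. In sham library 3 the T cell sum was 170 and the neutrophil sum 1521, the first above and the second within the range of the Foxp3DTR libraries. Its cytosolic sum without Wars was 790 and its Wars level was 80.9, both below all 4 Foxp3DTR libraries and both the highest of the 6 WT libraries. Sham library 3 also had the highest IFN-γ sum of the WT libraries, 2784, and the highest sham value of 15 of the 20 cytosolic genes. The part of the other cells in the synthetase levels was not tested beyond these fits.

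**Figure D5:**
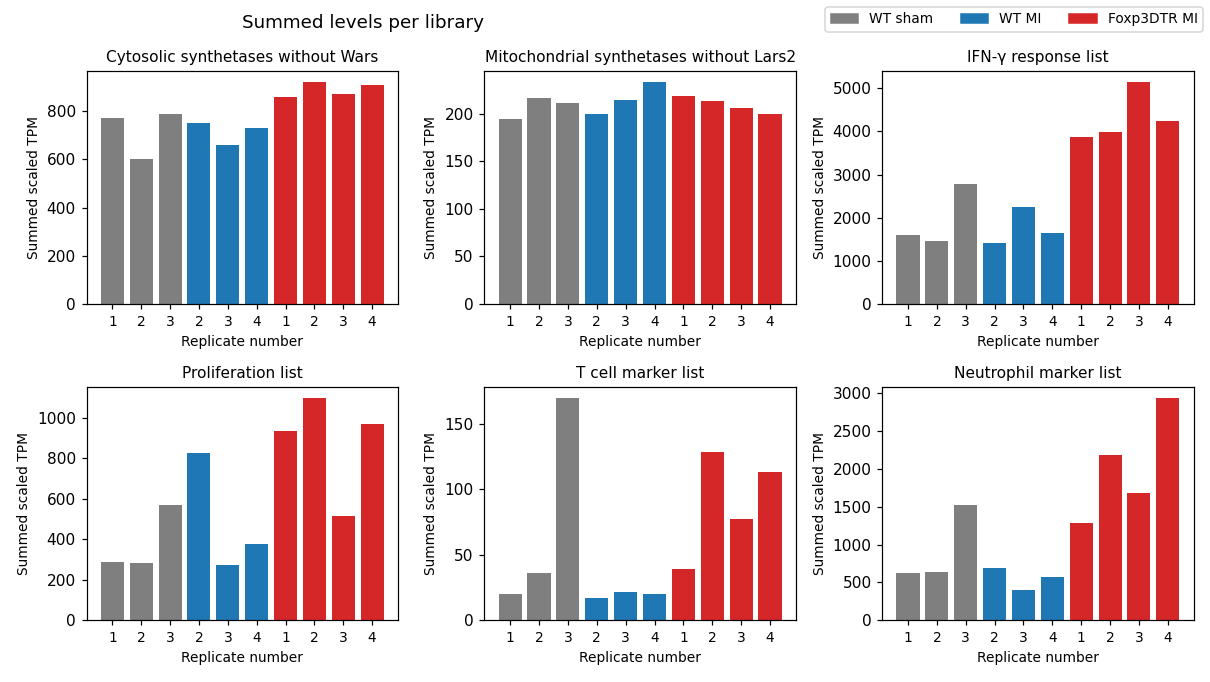
Summed scaled TPM per library (bars from 0, numbered by replicate) of the cytosolic synthetases without Wars, the mitochondrial synthetases without Lars2 and 4 other gene lists, in WT sham (grey), WT MI (blue) and Foxp3DTR MI (red). The cytosolic and IFN-γ sums are higher in all 4 Foxp3DTR libraries than in all 6 others, while sham library 3 reaches the highest T cell sum, 170.

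The comparison of WT MI with sham asks how these monocytes differ in WT mice after MI and after sham surgery. It may also hold a difference in toxin. No synthetase differed past the threshold, and by limma 0 of the 12938 genes did, with 2.2% higher and 2.44% lower at an unadjusted p under 0.05. None of the 36 synthetases had an unadjusted p under 0.05. Of the cytosolic genes 7 of 20 were positive with a median of -0.027, and of the mitochondrial genes 10 of 16 with a median of 0.067. Vars2 had the lowest p, at 4.30, 4.18 and 5.62 scaled TPM in sham and 6.67, 5.75 and 6.48 in WT MI, and was the 1 member whose groups did not overlap, against 3.18% of all genes. Its log2 fold change was 0.36 with an SE of 0.19 (limma, adjusted p = 0.960).

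Iars2, the mitochondrial isoleucine enzyme, was the other named on the higher side at 0.24 with an SE of 0.15 (limma, adjusted p = 0.960). Of the transcript windows of Iars2, 22.7% also occur in other genes, mainly in the antisense gene Rab3gap2. On the lower side were Eprs at -0.18 with an SE of 0.14 (limma, adjusted p = 0.963) and Yars at -0.19 with an SE of 0.17 (limma, adjusted p = 0.963). Wars was at -0.049 with an SE of 0.22 (limma, adjusted p = 0.997). Without sham library 2 the cytosolic median was -0.17.

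Foxp3DTR mice after MI were also set against sham, a comparison that mixes genotype, depletion and surgery and may also mix in toxin. Wars was again the 1 synthetase called, against 0.386% of genes called higher, with a mean of 62.6 ± 17.5 scaled TPM (SD, n = 3) in sham and a log2 fold change of 1.25 with an SE of 0.21 (limma, adjusted p = 0.039). The call ended when sham library 1 or 2, library 3 or 4 of WT MI or any 1 Foxp3DTR library was left out, with adjusted p values (limma) of 0.053 to 0.134 and a log2 fold change of 1.05 to 1.32. All 20 cytosolic genes were positive with a median of 0.25, which was 0.16 without sham library 2. Of these, 8 did not overlap, against 9.8% of all genes, and 7 had an unadjusted p under 0.05 on the higher side, against 10.2%.

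Kars followed Wars by p, at 48.7, 40.7 and 54.9 scaled TPM in sham and at 61.7, 69.4, 68.7 and 76.2 in Foxp3DTR MI, without overlap. Its log2 fold change was 0.52 with an SE of 0.12 (limma, adjusted p = 0.088). Of the mitochondrial genes 7 of 16 were positive with a median of -0.039 and 0 were called or had an unadjusted p under 0.05. The lowest p on the lower side were those of Nars2 at -0.26 with an SE of 0.19 (limma, adjusted p = 0.493) and Cars2, the mitochondrial cysteine enzyme, at -0.16 with an SE of 0.20 (limma, adjusted p = 0.710).

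Lars2, the mitochondrial leucine enzyme, ranked between 10 and 18 of all gene entries by TPM in each library. It stood at 3446, 3630 and 2644 scaled TPM in sham, at 3052, 4162 and 5118 in WT MI and at 2871, 3291, 3848 and 3320 in Foxp3DTR MI, and the groups overlapped. No other mitochondrial member exceeded 48.2 scaled TPM. The gene lies at chr9:123366940-123462664 (mm10, plus strand). Within its 3894-base transcript, bases 3278 to 3349 match the annotated gene Gm15564 over 72 bases with 71 identical (98.6%), and 0.196% of its 50-base windows occur unchanged in transcripts of other genes. Rn45s, the precursor of ribosomal RNA, stood in the same tables at 55368 to 123113 and Mir6236 at 17576 to 98870 scaled TPM. WT MI library 4 was highest for all 3 entries, but other libraries were ordered differently. Foxp3DTR library 3 had the highest Lars2 level of its group (3848) and the lowest Mir6236 level (17576). Sham library 3 had the lowest Lars2 level of its group (2644) and the highest Mir6236 level (52969). Whether reads of other RNAs add to the Lars2 entry was not tested.

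Some members cannot be separated fully from other genes that share their sequence. For parts shared on opposite strands, no source used here gives the strand setting of the counting. Parts shared on the same strand would not be separated by strand in any setting. The largest shared parts were in Iars2 (22.7% of windows, mainly Rab3gap2), Aars (13.8%, mainly Exosc6 on the same strand), Fars2 (8.85%, mainly Nrn1), Farsb (7.27%, Sgpp2) and Iars (7.15%, Gm4849 in the same direction). Hars and Hars2 start 4 bases apart on opposite strands and share 5.95% and 3.37% of their windows with each other's or other transcripts. Rars, Gars and Wars, the 3 genes with the largest log2 fold changes in Foxp3DTR against WT MI, had 0 shared windows. Wars starts 98 bases from Wdr25 and Kars 5 bases from Terf2ip, each on the opposite strand.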

How the data were processed

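RNA of 10 libraries in 3 groups was analysed. The paper gives single-end reads of 50 bp from 20 to 50 pg of RNA, and by the submitters' notes on processing, the tools were cutadapt 1.1, StringTie 1.3.0, STAR 2.5 and CASAVA 1.4, and the build mm10. The authors deposited per gene TPM, which sums to 1e+06 per library, FPKM, which is scaled by gene length and library size, and coverage, a signal that is the mean depth over exons. The deposited tables hold no counts, so the study's count test was not used. Depth was inferred as coverage over FPKM, constant within 1% for 84.9 to 85.2% of rows, and no counting interval is given.

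TPM was summed per symbol, scaled by median-of-ratios factors and taken to log2(value + 1), so fold changes of low genes are understated. limma 3.58.1 (R 4.3.3) fitted 3 group means with a variance trend to the 12938 genes with at least 1 TPM in 3 or more libraries, two-sided, with Benjamini-Hochberg adjustment over all of them; it was tested on simulated data. Called means an adjusted p under 0.05. Lists are described by counts and medians beside those of all genes. Fold changes with SE and adjusted p are given for any synthetase called, for the 4 (first comparison) or 2 of lowest p in each direction, and for the member of lowest p of 4 related lists. Other genes given with values were chosen after those were seen. Members and lists were chosen with earlier results of these data known. Shared sequence was counted as 50-base windows of GENCODE transcripts. Some promoter matches are not reported here.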

Additional observations from a re-analysis of the deposited data

Results flagged for a closer look

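Within the 4 Foxp3DTR libraries, 3 quantities had 1 library apart from the other 3 (by Dixon's test of the gap to the nearest library against the range), of 39 quantities looked at, and chance gives about 5% of such groups. Iars stood at 34.4 scaled TPM in Foxp3DTR library 3, with the nearest other library at 37.4. Tars stood at 42.2 scaled TPM in Foxp3DTR library 2, with the nearest at 35.9. The summed level of the 20 cytosolic genes was 988 scaled TPM in Foxp3DTR library 1 and 1055 to 1058 in the other 3, and all 4 sums were above the 6 WT sums, of which the highest was 871.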

How the results depend on the processing

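The alternatives were 11 other settings, the replicate number as a block, leaving out each library and 3 covariates added after seeing the data. In Foxp3DTR against WT MI, 145 genes and 1 synthetase were called, and the medians were 0.37 (cytosolic) and -0.031 (mitochondrial). TPM without scaling gave 527 genes, 4 synthetases and medians of 0.61 and 0.20, with Hars2 at 0.058. No filter gave 22 genes and 0 synthetases (12 at an unadjusted p under 0.05), only the 2 groups compared 583 and 3, array weights 398 and 3, and no variance trend 74 genes. Pseudocount 5 gave a cytosolic median of 0.32, and quantile normalization put Lars2 at 0.17. The covariates gave 0 genes and 0 synthetases (2 to 3 at an unadjusted p under 0.05), cytosolic medians of 0.20 (T cell), 0.078 (neutrophil) and 0.25 (proliferation), a mitochondrial median of -0.13 (T cell), and Lars2 at 0.066 (neutrophil) and 0.047 (proliferation). In WT MI against sham, no scaling gave medians of -0.20 and -0.10, and only the 2 groups gave 3 genes where the fit of all 3 groups gave 0; Wars turned to 0.16 with the T cell and 0.044 with the neutrophil covariate. In Foxp3DTR MI against sham (70 genes, 1 synthetase), the counts of genes and synthetases were 23 and 0 with pseudocount 0.1, 11 and 0 with no filter, 10 and 0 with only the 2 groups, 29 and 0 with no variance trend, 17 and 0 with the T cell covariate and 0 and 0 with the other 2 covariates (1 to 8 synthetases at an unadjusted p under 0.05). The mitochondrial median was 0.017 without scaling, 0.037 with array weights and 0.045 with the proliferation covariate, against -0.039. The causes of these changes were not tested.

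Leaving out 1 library gave 0 to 431, 0 to 2 and 3 to 636 called genes in the 3 comparisons, in the order above. Synthetases called higher were 0 to 3, 0 to 0 and 0 to 3, and 0 were called lower each time. Without WT MI library 2, 0 genes were called in the first comparison (2424 at an unadjusted p under 0.05), and without sham library 2, 431 were called. Cytosolic medians were 0.31 to 0.38, -0.17 to 0.050 and 0.16 to 0.32, and mitochondrial medians -0.11 to -0.017, 0.029 to 0.15 and -0.096 to 0.033. In WT MI against sham, Wars ranged from -0.25 without sham library 2 to 0.15 without sham library 3, with 0.13 without WT MI library 2. In Foxp3DTR MI against sham, Cars2 ranged from -0.29 without sham library 1 to 0.048 without sham library 2. Over all 25 settings Wars ranged from 0.98 to 1.54 (limma, adjusted p from 0.0063 to 0.999) against WT MI, past the threshold in 14, and from 1.05 to 1.45 (limma, adjusted p from 0.0063 to 0.996) against sham, past it in 10.

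The replicate block gave 81, 0 and 16 called genes in the 3 comparisons, and Wars kept its call in the 2 that had it. The labels name no pairing of libraries of the same number. Their deviations from the group means correlated from -0.19 to 0.19, and those of libraries of different numbers from -0.20 to 0.18. Such deviations sum to 0 within each group, so these correlations cannot exclude a pairing. The depth limits the lowest members most, such as Ears2 with a mean exon depth of 0.049 to 0.267.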

Other observations

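The genes around the synthetases were also compared between WT MI and sham, where 0 of them were called (limma). At an unadjusted p under 0.05, 1 of 13 partner genes was higher and 0 lower. Of 9 mitochondrial factors 0 were higher and 2 lower, and of 20 amino acid response genes 1 was higher and 0 lower. Of all genes, 2.2% were higher and 2.44% lower at that p. The lowest p of the partners was that of Aarsd1, which removes wrongly charged alanine tRNA, at 8.37, 4.24 and 14.6 scaled TPM in sham and 18.3, 12.8 and 13.5 in WT MI, where the groups overlapped. Mrrf had the lowest p of the mitochondrial factors, at 8.75, 9.51 and 9.96 in sham and 5.85, 5.58 and 7.15 in WT MI, with a log2 fold change of -0.54 and an SE of 0.21 (limma, adjusted p = 0.960).

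In Foxp3DTR MI against sham, Eif5a stood at 180, 144 and 207 scaled TPM in sham and at 264, 267, 263 and 286 in Foxp3DTR MI, without overlap, with a log2 fold change of 0.62 and an SE of 0.15 (limma, adjusted p = 0.097). Psat1, an enzyme of serine synthesis, had the lowest p of the amino acid response list, at 14.8, 11.7 and 30.8 in sham and 40.0, 50.5, 27.2 and 34.9 in Foxp3DTR MI, where the groups overlapped. Its log2 fold change was 1.04 with an SE of 0.31 (limma, adjusted p = 0.138).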
